A study of Arabidopsis thaliana with 18 samples.

Results

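Among the transcripts that rose under low oxygen in wild type Arabidopsis thaliana rosettes, 69 probe sets rose by at most 50% as much in plants carrying 35S::amiRAP2.2-12, a construct for an artificial microRNA (here amiRAP2.2-12). These 69 probe sets are described here on every array. They were chosen by their measured values: a wild type mean in air of at least 4 on the log2 scale, a rise of at least 1.5 under hypoxia in wild type, and a change in amiRAP2.2-12 of at most 50% of the wild type change. Of 22746 probe sets, 285 met both wild type conditions and 71 met all 3 conditions. AT1G19530 and OSM34 were among the 71 and were left out, as the rule names them, which gave 69. AT5G26200, also named in the rule, did not meet it (55.6% of the wild type change). A probe set is a group of array probes for one transcript, and a log2 difference of 1 is a 2-fold difference. The remaining 214 probe sets that met the wild type conditions serve as the comparison and are called the other induced probe sets.

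The study compared 3 genotypes in the Columbia 0 background: the wild type, amiRAP2.2-12, and a line carrying 35S::HA::RAP2.12 (here HA-RAP2.12). The 35S promoter is constitutive, so neither construct is limited to one cell type or to low oxygen. Plants 5 weeks old were kept in darkness at 22 °C for 1.5 h at 21% oxygen (air) or 1% oxygen (hypoxia), and RNA of the rosette was hybridised to Affymetrix Arabidopsis Genome arrays. There were 18 arrays, 3 in each of 6 groups. The labels do not say whether the 3 samples of a group came from separate plants, so the p-values measure only the spread between these samples.

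RAP2.12 and RAP2.2 belong to group VII of the ethylene response factors. In air, these proteins are marked for degradation through their oxidised N-terminal cysteine, and under low oxygen they persist and switch on genes of fermentation and oxygen sensing. Among the genes described below are members of other processes as well: glutaredoxins and oxidoreductases handle redox chemistry, heat shock proteins keep other proteins folded, expansins loosen the cell wall, and lectins bind sugars. Transcripts of RAP2.12 and of RAP2.2 themselves were not analysed here, so the effect of the constructs on their targets was not checked. Single genes were named for 28 of the 69 probe sets, at 28 loci, and the annotation used here did not list the other 41.

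The leaf markers that were measured were high on all 18 arrays. RCA, the activase of Rubisco, lay between 14.9 and 15.1 on the log2 scale, and the Calvin cycle enzymes SBPASE and PRK lay between 13.0 and 13.7 (3 of 10 leaf markers measured). Of 6 root markers 4 were measured: AT4G11290, AT5G66390 and EXPA7 lay between 2.11, the lowest value of the table, and 2.80, while PYK10, a beta-glucosidase of roots, ranged from 3.85 to 8.76. One array stood apart: the second amiRAP2.2-12 hypoxia array differed from the other 2 of its group by a median of 0.298 over 10988 bright probe sets, against 0.0934 to 0.227 for the 17 others. Its array median was 5.59, against 5.71 to 5.81. Membership in the set, the medians over the members and the gene and group changes that moved by over 1.5 times or turned sign without this array are given below with and without it. In whole rosettes, fewer cells of a type and less RNA per cell cannot be told apart.

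The 69 probe sets rose strongly and evenly in wild type and little, on average, in amiRAP2.2-12. The median change was 1.89 in wild type (lowest 1.50, highest 4.16) and 0.56 in amiRAP2.2-12 (lowest -3.56, highest 1.99), where 57 means rose and 12 fell. The median member reached 33.9% of its wild type change in amiRAP2.2-12. Without the second amiRAP2.2-12 hypoxia array the same 69 members had a median change of 0.74 and a median share of 39.2%, and 61 means rose and 8 fell. For the other induced probe sets the medians were 2.13 in wild type and 1.78 in amiRAP2.2-12, with a median share of 78.1%. These values chose the members and are a description without a test. The limit ran through a continuous range: AT2G38710 at 48.2% and AT3G04000 at 49.3% were just inside, and AT4G28150 at 50.1% and AT2G28570 at 51.0% just outside.

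The 3 amiRAP2.2-12 hypoxia arrays did not show the weak rise to the same degree. Each array was set against the mean of the 3 amiRAP2.2-12 air arrays and expressed as a percentage of the wild type change. The median over the 69 members was 55.7% on the first hypoxia array (lowest -184%, highest 110%), 12.9% on the second (lowest -160%, highest 77.7%) and 24.5% on the third (lowest -141%, highest 59.1%). By these medians the first array was the highest and the second the lowest. This did not hold for every member: the second array was the lowest for 38 of 69 and the highest for 16. For the other induced probe sets the medians were 88.8%, 80.4% and 71.2% on the 3 arrays, so that there the third array was the lowest. On the first array 33 of 69 members were at or under the 50% limit, on the second 59 and on the third 66. All 3 arrays were at or under the limit for 26 members, 2 arrays for 37 and 1 array for 6.

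**Figure D1:**
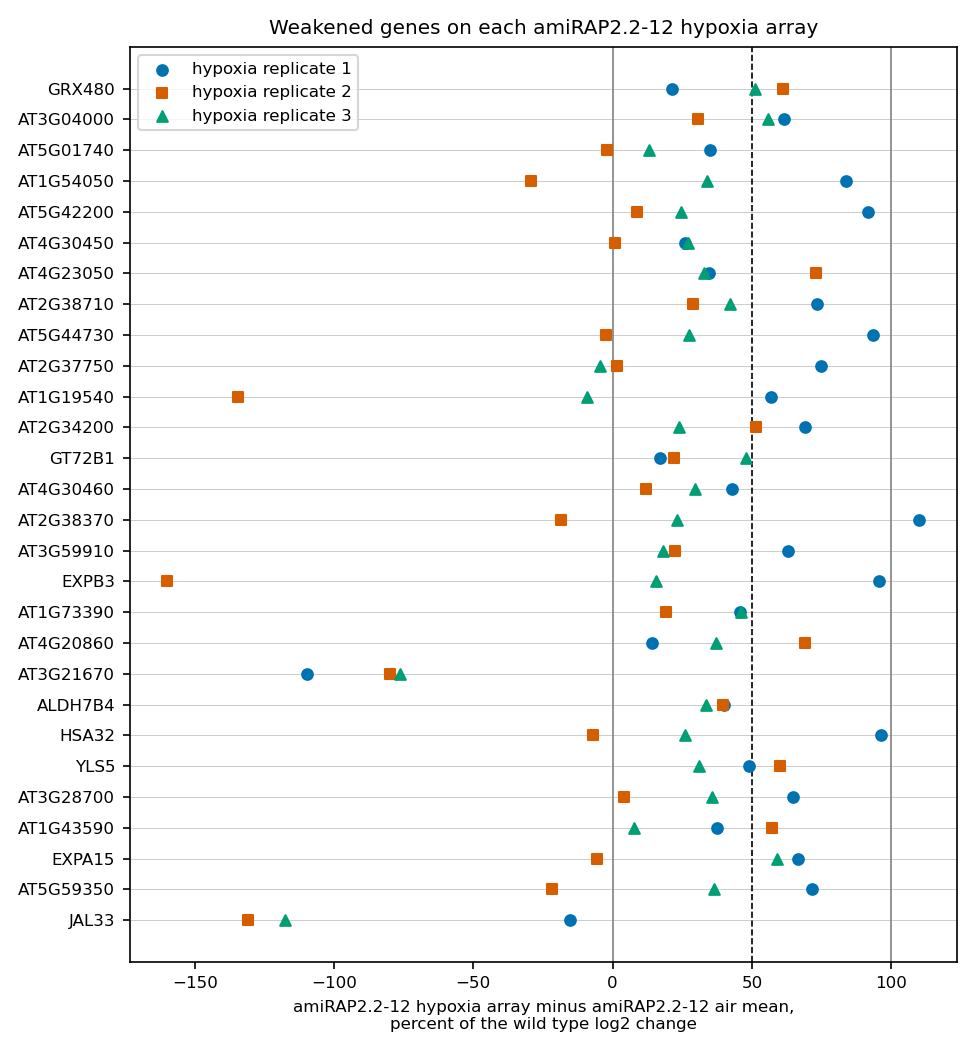
Each row is 1 of the 28 named genes, ordered by wild type change, and each symbol is 1 amiRAP2.2-12 hypoxia array (circle, square and triangle for replicates 1, 2 and 3). The horizontal axis gives that array minus the amiRAP2.2-12 air mean as a percentage of the wild type log2 change, with solid lines at 0 and 100% and a dashed line at the 50% limit. For 8 genes all 3 symbols lie at or left of the dashed line.

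When the rule was applied without the second amiRAP2.2-12 hypoxia array, it found 55 probe sets, of which 48 were among the 69, so 21 members were lost and 7 joined. Of the 28 named genes 11 were lost: AT3G04000, AT1G54050, HSA32, EXPB3, EXPA15, AT5G42200, AT5G44730, AT2G38710, AT2G38370, AT3G28700 and AT5G59350. Without the first amiRAP2.2-12 hypoxia array the rule found 95 probe sets. Without the first amiRAP2.2-12 air array, it found 64, and 14 of the 69 were lost. With that air array and the second hypoxia array both out, a choice made after the data were seen, 47 were found and 39 of the 69 were kept. The second array was the lowest of the 3 hypoxia arrays for 38 members and 66 of the 214 others. The first was the highest for 47 members and 110 others. For 5 of the 69 members each of the 9 differences between a single hypoxia and a single air array of amiRAP2.2-12 was at most 50% of the wild type change, which took in members with a wide spread in air as well as steady ones. One of these was a named gene, AT1G73390, which encodes a protein with a BRO1 domain.

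The first role group holds enzymes of oxidation, reduction and conjugation, 7 of the 28 named genes. The role groups were formed after the members were seen. Their median change was 1.94 in wild type, 0.69 in amiRAP2.2-12 and 1.62 in HA-RAP2.12. GRX480 (AT1G28480), a glutaredoxin that binds TGA transcription factors, had the largest wild type change of all members. Its level on the log2 scale was 3.77, 4.72 and 3.75 in wild type air and 8.14, 8.25 and 8.34 in wild type hypoxia. In amiRAP2.2-12 it was 5.56, 5.80 and 3.76 in air and 5.92, 7.58 and 7.17 under hypoxia. The amiRAP2.2-12 hypoxia arrays thus lay above its air arrays and below every wild type hypoxia array, and on 2 of 3 air arrays the gene was already above wild type. The changes were 4.16 in wild type and 1.85 in amiRAP2.2-12. GRX480 was the single member on the list of 15 genes for reactive oxygen and mitochondrial dysfunction, of which 6 were measured and 1 met the wild type conditions.

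AT3G04000, a short-chain dehydrogenase/reductase, showed the second largest change among the named genes. It measured 5.79, 5.80 and 6.03 in wild type air, and 9.39, 9.38 and 9.33 in wild type hypoxia. In amiRAP2.2-12 the levels were 7.16, 6.24 and 5.97 in air and 8.60, 7.52 and 8.41 under hypoxia. These groups did not overlap, and the second hypoxia array was the lowest. The change was 1.72 (2.05 without that array) against 3.49 in wild type. GT72B1 (AT4G01070) encodes a UDP-glucosyltransferase that attaches glucose to small molecules. It rose from 5.64, 5.59 and 5.55 to 7.45, 7.54 and 7.61 in wild type. In amiRAP2.2-12 it was 6.70, 6.20 and 5.92 in air and 6.60, 6.70 and 7.20 under hypoxia, with the first air array at about the level of 2 hypoxia arrays. It was at or under the 50% limit on every hypoxia array.

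ALDH7B4 (AT1G54100), an aldehyde dehydrogenase, was the most abundant named member, and was named after its values were seen. It was at 12.10, 12.05 and 12.05 in wild type air and 13.75, 13.77 and 13.68 in wild type hypoxia. The amiRAP2.2-12 hypoxia arrays were nearly equal, at 13.19, 13.18 and 13.09, while the air arrays were spread over 13.14, 12.58 and 11.85. AT4G20860, a berberine bridge enzyme-like oxidase, had an even wider spread in air. Its amiRAP2.2-12 levels were 8.86, 7.55 and 6.72 in air and 7.95, 8.89 and 8.35 under hypoxia, against 7.41, 7.47 and 7.42 and then 9.21, 9.13 and 9.11 in wild type. The air and hypoxia arrays overlapped in amiRAP2.2-12 and were far apart in wild type. YLS5 (AT2G38860), of the DJ-1 family, changed by 1.60 in wild type and 0.75 in amiRAP2.2-12, and AT1G19540, an isoflavone reductase-like protein, by 2.03 and -0.59. AT1G19540 was at 9.32, 5.43 and 7.97 on the 3 amiRAP2.2-12 hypoxia arrays, and its change was 0.48 without the second array.

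The 2 named genes of heat stress were weak on 2 of the 3 amiRAP2.2-12 hypoxia arrays. AT1G54050, a small heat shock protein, was at 6.37, 6.06 and 6.25 in wild type air and 9.27, 9.11 and 9.29 in wild type hypoxia. The amiRAP2.2-12 levels were 7.34, 6.75 and 6.35 in air and 9.32, 5.94 and 7.83 under hypoxia. The first hypoxia array thus stood at the wild type hypoxia level and the second below all air arrays of either genotype. HSA32 (AT4G21320), needed for long-term thermotolerance, gave a like picture: 6.29, 6.10 and 6.28 in amiRAP2.2-12 air and 7.82, 6.10 and 6.65 under hypoxia, beside 8.01, 7.68 and 7.73 in wild type hypoxia. Both were lost from the set without the second array, where the median change of the pair was 1.39 in place of 0.76. Of 26 loci on the list of heat shock proteins and co-chaperones 11 were measured and 2 met the wild type conditions. One of the 2 was AT1G54050, and the other, AT5G48570, kept 74.9% of its wild type change in amiRAP2.2-12. HSA32 also had values equal within 0.001 on 6 arrays, and it was 1 of 7 members with such repeats on at least 3 arrays, against 11.8% of the 13336 probe sets whose mean exceeded log2 4.

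The 5 genes of the cell wall and lectin group had median changes of 1.77 in wild type and 0.83 in HA-RAP2.12. In amiRAP2.2-12 the median was 0.44 (0.69 without the second hypoxia array). AT4G30450 and AT4G30460 encode glycine-rich proteins and are neighbours in the genome with no gene between them, and both were at or under the limit on all 3 amiRAP2.2-12 hypoxia arrays. AT4G30450 was at 7.36, 7.23 and 7.33 in wild type air and 9.57, 9.73 and 9.99 in wild type hypoxia. In amiRAP2.2-12 it was at 9.79, 8.55 and 7.48 in air and 9.25, 8.63 and 9.27 under hypoxia, so the first air array exceeded every hypoxia array of the line. AT4G30460 followed the same order in air, with 8.80, 7.52 and 5.58, and was at 8.11, 7.52 and 7.86 under hypoxia. Its wild type levels were 6.32, 6.62 and 6.49 in air and 8.38, 8.27 and 8.47 under hypoxia.

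JAL33 (AT3G16450), a jacalin-related lectin, was the named gene furthest below wild type under hypoxia. It was at 6.12, 5.96 and 6.31 in wild type hypoxia and at 4.63, 2.88 and 3.08 in amiRAP2.2-12 hypoxia, where 2 of 3 arrays were below all wild type air levels (4.56, 4.67 and 4.62). EXPB3 (AT4G28250), a beta-expansin, was at 7.82, 3.31 and 6.41 on the amiRAP2.2-12 hypoxia arrays and at 6.34, 6.32 and 6.57 in wild type hypoxia. The first of these arrays was above wild type, and the second was the lowest of all 18. The change of EXPB3 in amiRAP2.2-12 was -0.29, and 0.98 without the second array. EXPA15, an alpha-expansin named after its values were seen, was at 5.38, 4.25 and 5.26 under hypoxia in amiRAP2.2-12, and both expansins were lost from the set without the second array. PYK10 moved over the same arrays as JAL33, EXPB3 and AT1G19540, with 8.21, 3.85 and 6.76 in amiRAP2.2-12 hypoxia and 8.55 to 8.74 in wild type hypoxia. The mean of the 4 root markers ranged from 2.56 to 3.66 in amiRAP2.2-12 hypoxia, 3.76 to 3.90 in wild type hypoxia, 2.88 to 3.67 in HA-RAP2.12 hypoxia, and 3.51 to 3.81 over the air groups. The 3 root markers other than PYK10 were at or near the lowest value in every group. The part of PYK10 in these results was not tested.

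On a list of 52 loci known to rise under low oxygen, 27 had a named probe set, 17 met the wild type conditions and 2 were members: AT5G42200, a RING finger protein, and AT5G44730, a hydrolase of the HAD family. AT5G42200 was at 5.20, 5.48 and 5.57 in wild type air and 7.93, 8.12 and 8.01 in wild type hypoxia. In amiRAP2.2-12 it was at 5.39, 5.47 and 5.62 in air and 7.88, 5.72 and 6.13 under hypoxia. AT5G44730 gave 6.74, 6.52 and 6.94 in air and 8.66, 6.69 and 7.30 under hypoxia, beside 8.69, 8.81 and 8.90 in wild type hypoxia. Both genes stood at or near the wild type level on the first hypoxia array and near the air level on the second, and both were lost from the set without the second. The other listed genes that met the wild type conditions, apart from AT1G19530 at 28.3%, kept between 53.2% (PDC2, a pyruvate decarboxylase of ethanol fermentation) and 98.4% (AT2G15880) of the wild type change. With AT1G19530 counted, 3 of these 17 genes (17.6%) met the rule, beside 71 of all 285 probe sets (24.9%) that met the wild type conditions. The 17 are all named genes, while the 285 include probe sets without a listed gene, so these shares are of unlike sets. Named probe sets covered 4 of 16 loci on the fermentation list, 12 of 16 calcium sensors and 3 of 20 rapid stress transcription factors. Of these measured genes 2, 1 and 1 met the wild type conditions, and none was a member. For the ethylene, jasmonate and abscisic acid lists they covered 4 of 26, 2 of 18 and 2 of 19 loci. None of these measured genes met the wild type conditions, so none of them could be a member. Listed loci without a named probe set could not be looked up among the 41 members without a listed gene. No named probe set was available for the list of transport proteins and aquaporins.

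Transport and signalling genes in the set were AT3G21670, AT4G23050, AT2G34200 and AT3G59910. AT3G21670, a transporter of the nitrate transporter family (NPF6.4), had the largest air difference among the named genes. It was at 7.29, 7.30 and 7.32 in wild type air and between 8.95 and 9.01 in wild type hypoxia. The amiRAP2.2-12 line measured 11.31, 10.26 and 7.59 in air and 7.88, 8.38 and 8.44 under hypoxia. Here 2 air arrays were above every hypoxia array of either genotype, and the change of the mean was -1.49. AT4G23050, a Raf-like kinase with a PAS domain, changed by 2.18 in wild type and 1.02 in amiRAP2.2-12, with 7.70, 8.53 and 7.66 on the hypoxia arrays of the line. Its second array was the highest, as in 16 of the 69 members. The zinc finger gene AT2G34200 changed by 1.96 and 0.94, and the ankyrin repeat gene AT3G59910 by 1.83 and 0.63.

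The 8 remaining named genes had median changes of 1.79 in wild type and 0.55 in amiRAP2.2-12. AT5G01740, which encodes a protein of the NTF2-like fold, had a wild type level of 4.59, 5.17 and 5.54 in air and 8.20, 8.35 and 8.61 under hypoxia. In amiRAP2.2-12 its air levels of 6.95, 6.24 and 5.16 overlapped the hypoxia levels of 7.26, 6.04 and 6.54, and the change was 0.50 (0.79 without the second hypoxia array) against 3.29. AT1G73390 was steadier, at 5.57, 5.49 and 5.49 in amiRAP2.2-12 air and 6.31, 5.85 and 6.32 under hypoxia. Its wild type hypoxia levels of 7.56, 7.34 and 7.49 lay above all of these. AT2G37750 changed by 2.04 in wild type and 0.49 in amiRAP2.2-12, with hypoxia levels of 8.65, 7.15 and 7.03 in the line. AT2G38710, of the AMMECR1 family, changed by 2.10 and 1.01. The last 4, AT2G38370, AT3G28700, AT1G43590 (a pseudogene in the gene table) and AT5G59350, were named after their values were seen and changed by 1.54 to 1.83 in wild type and by 0.44 to 0.70 in amiRAP2.2-12. Without the second hypoxia array these ran from 0.36 for AT1G43590 to 1.22 for AT2G38370.

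**Figure D2:**
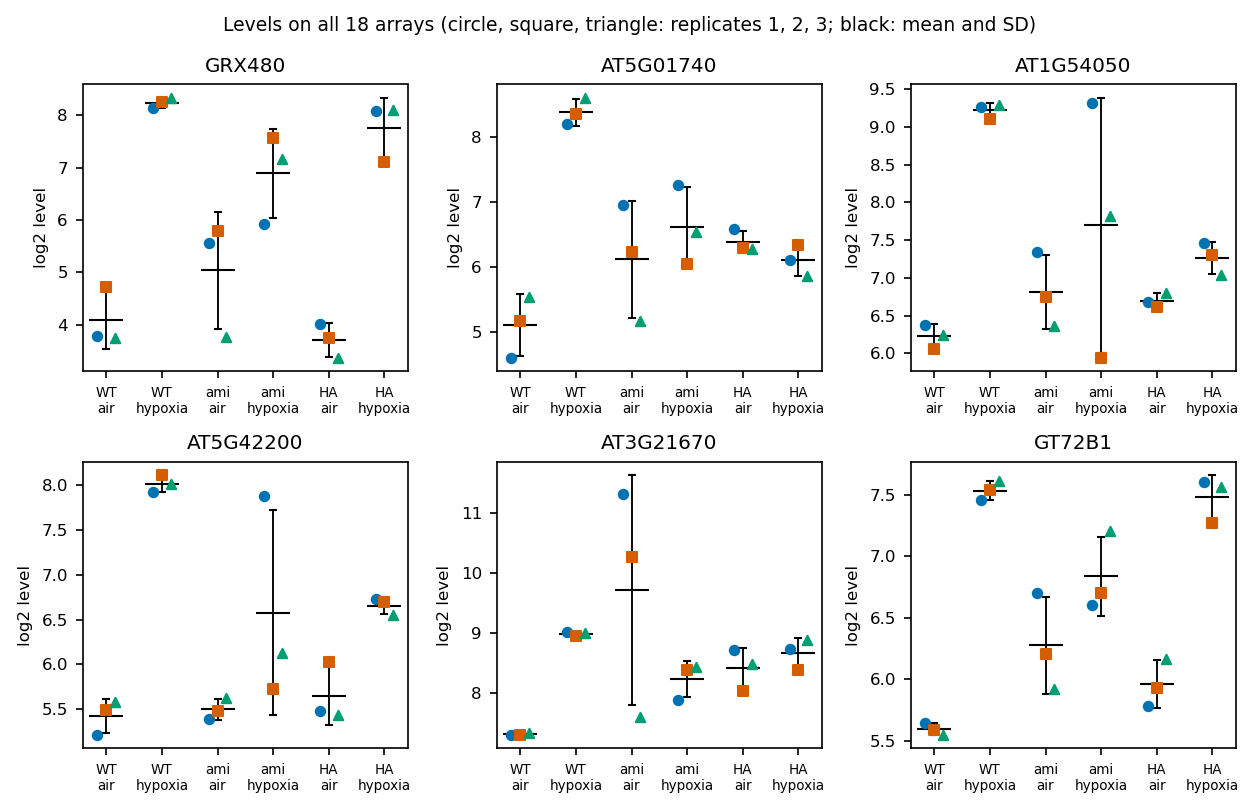
Log2 levels of 6 members on all 18 arrays, with the 6 groups along the horizontal axis (WT wild type, ami amiRAP2.2-12, HA HA-RAP2.12). Circles, squares and triangles are replicates 1, 2 and 3, and black marks are the mean and SD of 3 arrays. The amiRAP2.2-12 arrays of AT1G54050 and AT5G42200 under hypoxia reach from the air level to the wild type hypoxia level, and those of AT3G21670 in air reach above every hypoxia array.

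A small change in amiRAP2.2-12 can come with a high level in air as well as with a low level under hypoxia, and both were present. The amiRAP2.2-12 mean was below the wild type mean under hypoxia in all 69 members (median -0.94, lowest -3.48, highest -0.51). Without the second hypoxia array it was below in 67 of 69 (median -0.83, lowest -3.67, highest 0.70, the last for EXPB3). In air it was above wild type in 58 of 69, with a median difference of 0.38 (lowest -0.95, highest 3.88). For the other induced probe sets the air mean was above wild type in 81 of 214, with a median of -0.09, and the hypoxia mean was below in 199 of 214, with a median of -0.59. The air excess was at least 0.5 in 26 of 69 members and 6 of 214 others. In 14 of 69 members the higher air level made up more than 50% of the shortfall in change, among them AT3G21670 and EXPB3. No such count is given for the others, since 39 of the 214 had no shortfall. Without the second hypoxia array the higher air level made up more than 50% of the shortfall in 21 of the 69 members. The rule used all of these arrays, and these values were not tested.

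The air excess was uneven across arrays. The mean level over the 69 members was 7.42, 6.98 and 6.42 on the 3 amiRAP2.2-12 air arrays, against 6.33 to 6.38 in wild type air. Under hypoxia it was 7.83, 7.03 and 7.30 in amiRAP2.2-12 and 8.47 to 8.54 in wild type. The first amiRAP2.2-12 air array was therefore above 2 of the 3 hypoxia arrays of the same line, and the third was close to wild type. The first air array was the highest of its group for 50 of 69 members and 100 of 214 others. The third was the lowest for 46 members and 90 others. Air and hypoxia arrays of the line overlapped in 46 of 69 members, a count that was not made for the others. The third air array also had the largest 3′ to 5′ difference of the control transcripts, a sign of RNA quality: 5.64 for actin against 4.67 to 5.09 on the 17 others, 2.78 for GAPDH against 1.86 to 2.38, and 1.81 for ubiquitin against 1.24 to 1.66. Its part in the air levels was not tested. The median SD of a member was 0.38 in amiRAP2.2-12 air and 0.47 in amiRAP2.2-12 hypoxia, and 0.14 and 0.11 in wild type (n = 3 each).

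**Figure D3:**
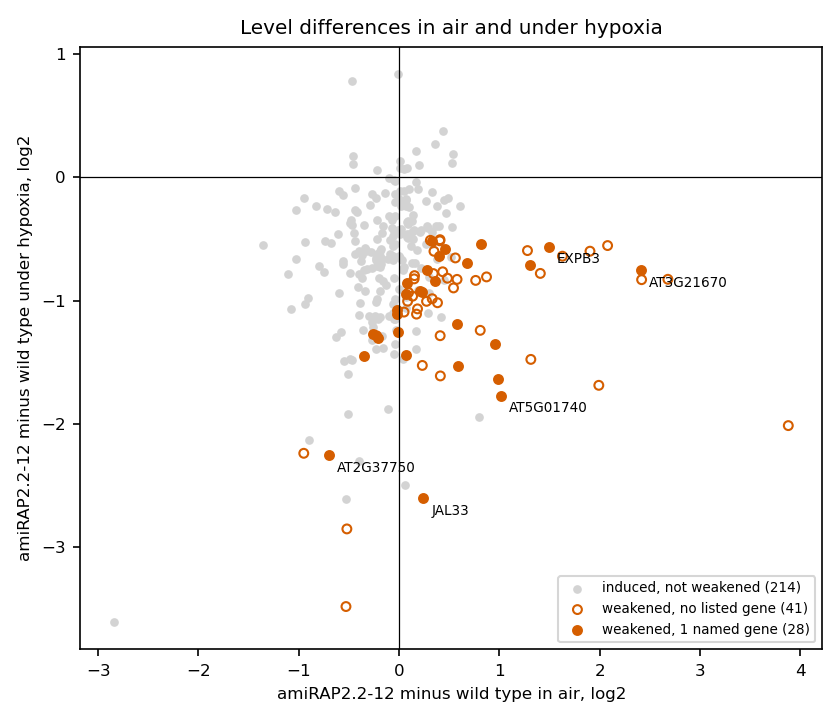
Each point is 1 probe set that met the wild type conditions, with the amiRAP2.2-12 minus wild type difference of group means in air on the horizontal axis and under hypoxia on the vertical axis, both log2. Orange points are the 69 members, filled where 1 gene is named, and grey points the 214 others. All 69 members lie below the horizontal line and 58 lie right of the vertical line.

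The 41 members without a listed gene included some of the most extreme values, and the 4 described here were picked after their values were seen. Probe set 266142_at was at 4.96, 4.51 and 5.09 in wild type air and 7.23, 7.03 and 7.32 in wild type hypoxia. In amiRAP2.2-12 it was at 10.98, 9.92 and 5.31 in air and 4.43, 5.66 and 5.45 under hypoxia, which gave the lowest change of all members, -3.56. Its first and second air arrays stood above every other value of the probe set, as they did for AT3G21670. Probe set 254232_at showed the same order in air, with 13.62, 13.16 and 9.92 in amiRAP2.2-12, and was at 11.88, 12.61 and 11.84 under hypoxia. Probe set 256243_at was lower in amiRAP2.2-12 air, at 4.97, 4.68 and 4.67, than in wild type air, at 5.33, 5.33 and 5.26, and was at 6.85, 3.19 and 5.51 under hypoxia against 8.70, 8.54 and 8.75 in wild type. Probe set 245998_at rose from 7.17, 7.36 and 7.31 to 11.28, 11.25 and 11.44 in wild type. On the amiRAP2.2-12 hypoxia arrays it was at 11.14, 9.85 and 9.24, the first of which was close to wild type.

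The HA-RAP2.12 arrays took no part in choosing the members and allowed a test of whether the same probe sets rose under hypoxia in another genotype. In HA-RAP2.12, 33 of the 69 members rose (47.8%) and none fell, at an adjusted p under 0.05 in limma (Benjamini-Hochberg over all 22746 probe sets). Over all probe sets 7.87% were called higher under hypoxia. Among the other induced probe sets 185 of 214 rose (86.4%) and none fell. The other 36 members were not called. An unadjusted p under 0.05 was found for 46 of the 69 members and 204 of the 214 others. Over all 22746 probe sets it was found for 6133. Without the third HA-RAP2.12 hypoxia array 20 members were called. The median change of members in HA-RAP2.12 was 0.97 (lowest -0.81, highest 4.05), which lies between those of amiRAP2.2-12 and wild type, and the median over all probe sets was 0. The HA-RAP2.12 change was larger than that of amiRAP2.2-12 in 54 of 69 members and in 126 of 214 others. It was also at most 50% of the wild type change in 32 of 69 members and in 21 of 214 others. The wild type and amiRAP2.2-12 changes in these comparisons are those that chose the members. The place of the HA-RAP2.12 median and these counts are therefore a description without a test.

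**Figure D4:**
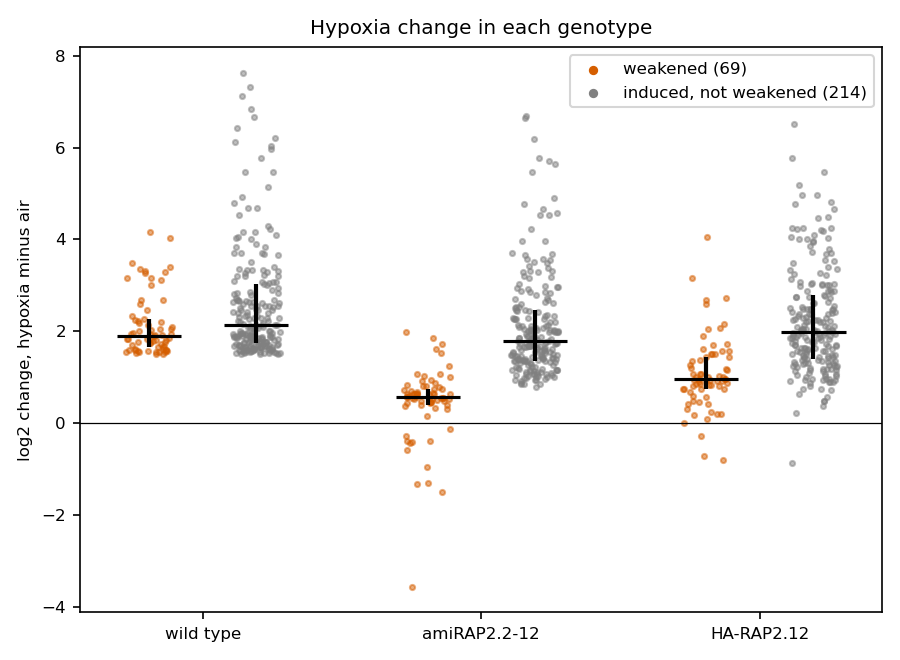
Log2 change (hypoxia minus air, group means) of the 69 members in orange and the 214 other induced probe sets in grey, in 3 genotypes. Horizontal bars are medians, vertical bars span the interquartile range. The member medians are 1.89 in wild type, 0.56 in amiRAP2.2-12 and 0.97 in HA-RAP2.12, and those of the others 2.13, 1.78 and 1.99. The wild type and amiRAP2.2-12 values chose the members.

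Of the 28 named genes 13 rose in HA-RAP2.12 (46.4%), beside 7.87% of all probe sets and 86.4% of the other induced probe sets. The redox and conjugating enzymes, a group formed after the members were seen, held 6 of these 13. Differences between the role groups were not tested. GRX480 went from 4.01, 3.75 and 3.36 in HA-RAP2.12 air to 8.07, 7.10 and 8.11 under hypoxia, a change of 4.05 (SE 0.36, adjusted p = 0.00646), without overlap and close to the wild type change of 4.16. AT4G20860 went from 7.09, 6.13 and 7.21 to 9.76, 9.18 and 9.64, a change of 2.72 (SE 0.37, adjusted p = 0.0159) against 1.72 in wild type. Its call was lost without the first HA-RAP2.12 hypoxia array (adjusted p = 0.0646) or the third (adjusted p = 0.0721). AT3G04000 rose by 2.69 (SE 0.25, adjusted p = 0.00701), YLS5 by 1.62 (SE 0.18, adjusted p = 0.00964), GT72B1 by 1.52 (SE 0.15, adjusted p = 0.00740) and ALDH7B4 by 1.44 (SE 0.14, adjusted p = 0.00757). AT1G19540, the seventh of the group, gave 0.91 (SE 0.55, adjusted p = 0.423).

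Outside this group 7 named genes rose. AT4G23050 rose by 1.58 (SE 0.14, adjusted p = 0.00615), and AT3G59910 by 1.27 (SE 0.06, adjusted p = 0.00222). Both low-oxygen genes were called: AT5G44730, with 6.75, 6.82 and 6.66 in air and 8.20, 8.33 and 8.43 under hypoxia, rose by 1.58 (SE 0.08, adjusted p = 0.00222), and AT5G42200 by 1.01 (SE 0.19, adjusted p = 0.0349). The call of AT5G42200 was lost when any HA-RAP2.12 array except the second air array was left out (adjusted p 0.102 to 0.120), in a fit of all 18 arrays (adjusted p = 0.109) and with trend and robust priors (adjusted p = 0.0650). On the low-oxygen list 25 of the 27 measured genes rose in HA-RAP2.12 and none fell, beside 7.87% of all probe sets called higher. Among the other induced probe sets 185 of 214 rose (86.4%). The list was chosen with earlier results of these data known. AT2G38710 rose by 1.00 (SE 0.06, adjusted p = 0.00323), AT1G73390 by 0.97 (SE 0.12, adjusted p = 0.0136) and AT3G28700 by 0.75 (SE 0.09, adjusted p = 0.0124). AT1G73390 was not called without the second air array, the third air array or the third hypoxia array (adjusted p 0.0574 to 0.0637). AT3G28700 was not called without the third air array (adjusted p = 0.0551), without the third hypoxia array (adjusted p = 0.0562) or with trend and robust priors (adjusted p = 0.0637).

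None of the 5 genes of the cell wall and lectin group and neither heat stress gene passed the test in HA-RAP2.12. The glycine-rich pair gave 0.85 for AT4G30450 (SE 0.22, adjusted p = 0.0818) and 0.18 for AT4G30460 (SE 0.17, adjusted p = 0.646), and AT4G30450 was called after a filter on dim probe sets (adjusted p = 0.0151). AT4G30460 was at 7.24, 7.29 and 7.75 in HA-RAP2.12 air, above all wild type air arrays, and at 7.71, 7.50 and 7.61 under hypoxia, below all wild type hypoxia arrays. EXPA15 gave 1.36 (SE 0.34, adjusted p = 0.0737), EXPB3 0.83 (SE 0.86, adjusted p = 0.664) and JAL33 -0.72 (SE 0.57, adjusted p = 0.581). EXPA15 was called in a fit of all 18 arrays (adjusted p = 0.0122), with array weights (adjusted p = 0.0414) and after that filter (adjusted p = 0.0109). JAL33 was at 2.98, 4.89 and 4.35 and EXPB3 at 5.20, 7.27 and 6.93 on the HA-RAP2.12 hypoxia arrays. The first array was the lowest for both, as it was for AT1G19540 (7.68, 9.32 and 9.34) and PYK10 (5.10, 8.10 and 7.37). The part of PYK10 in this was not tested.

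AT1G54050 was at 6.68, 6.62 and 6.80 in HA-RAP2.12 air and 7.46, 7.30 and 7.04 under hypoxia, a difference of 0.57 (SE 0.13, adjusted p = 0.0574). The groups did not overlap, and the gene was called without the third hypoxia array (adjusted p = 0.0428), after quantile normalization (adjusted p = 0.0477), median centring (adjusted p = 0.0400) or the filter on dim probe sets (adjusted p = 0.0142). HSA32 was at 6.28 to 6.29 on all 6 HA-RAP2.12 arrays, and its difference of 0.0031 (SE 0.0046, adjusted p = 0.840) rests on these repeated values. AT5G01740, which rose by 3.29 in wild type, was at 6.58, 6.29 and 6.28 in HA-RAP2.12 air and 6.11, 6.34 and 5.86 under hypoxia. Its difference was -0.28 (SE 0.16, adjusted p = 0.386). The transporter AT3G21670 gave 0.25 (SE 0.24, adjusted p = 0.646), with 8.71, 8.03 and 8.48 in air and 8.72, 8.38 and 8.87 under hypoxia. For AT5G01740 and AT3G21670 the HA-RAP2.12 air arrays were all above wild type air.

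Members that were weak on every amiRAP2.2-12 hypoxia array were called in HA-RAP2.12 in 10 of 26 cases. Members that left the set without the second amiRAP2.2-12 hypoxia array were called in 12 of 21. For comparison, 185 of 214 other induced probe sets (86.4%) and 7.87% of all probe sets were called higher. Both groups of members were formed on amiRAP2.2-12 values that the rule used, and the difference between their shares was not tested. Of the 8 named genes weak on every array, GT72B1, ALDH7B4 and AT1G73390 rose in HA-RAP2.12, and JAL33, AT4G30450, AT4G30460, AT3G21670 and AT5G01740 were not called. In air, HA-RAP2.12 was above wild type in 54 of 69 members (median difference 0.34) and in 86 of 214 others (median -0.08). Under hypoxia its median difference from wild type was -0.61 for the members and -0.41 for the others. The wild type values in these comparisons chose the members, and the differences were not tested. Both amiRAP2.2-12 and HA-RAP2.12 are compared here with the same wild type arrays.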

How the data were processed

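The values deposited by the authors are on the log2 scale, with 1 value per probe set and array, made with GCRMA (its version is not given in the sources used here), per the submitters' processing notes. This method removes background, equalises arrays and summarises probes, and leaves many dim probe sets at one lowest value. Control probe sets (64) were left out. The annotation named 1 gene for 13513 of the 22746 remaining probe sets, several for 503, and did not list 8730, and 13436 were matched to a locus in the TAIR10.1 gene table. Arrays have no read depth, and 3 per group limit the precision.

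Groups came from the sample labels. Members were selected on group means of these values. The members, gene lists and role groups were chosen with earlier results of these data known. Hypoxia was tested against air on the 6 HA-RAP2.12 arrays (R 4.3.3, limma 3.58.1, functions lmFit and eBayes, two-sided, Benjamini-Hochberg adjustment over 22746 probe sets, threshold 0.05), after a check on simulated data. Genes were named, where a probe set had 1 gene, if they were among the 10 largest differences between wild type and amiRAP2.2-12 changes, on a list, among the 5 largest or 5 smallest HA-RAP2.12 changes, next to the limit (2 on each side), or among the 5 with the largest wild type change that were weak on all amiRAP2.2-12 hypoxia arrays or were lost without the second, or the 5 largest air differences. The other 7 named members were added after their values were seen. Alternatives were another scaling, a filter on dim probe sets, removal of shared probe sets, other priors and array weights, a fit of all arrays, a replicate block, other limits, group medians, and leaving out arrays. Promoter and protein sequences were not used here. Plots used matplotlib 3.10.9 under Python 3.11.15.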

Additional observations from a re-analysis of the deposited data

How the results depend on the processing

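The number of members, 69, was 65 after quantile normalization, 60 after median centring, 85 with group medians, 33 with a wild type air limit of 6 and 28 with a wild type change of at least 2. It ranged from 55 to 95 when 1 array was left out. The count of probe sets called in HA-RAP2.12, in both directions, was 3399, and 1975 with trend and robust priors, 1440 with a log2 change of at least 1 and 1677 with the replicate block. It ranged from 1718 to 2501 with 1 array out, lowest without the third hypoxia array. The count of members called, 33, ranged from 20 to 30 with 1 array out, and was 45 after the filter on dim probe sets. With the replicate block it was 17, of which 15 were among the 33. Same-numbered HA-RAP2.12 arrays deviated together with r = 0.454, 0.377 and 0.0628, and differently numbered ones with r from -0.418 to 0.191. The first and second same-numbered values lay above that range and the third within it, so these values do not settle whether the numbers pair the samples. The labels do not say what a replicate number shares, and the main fit therefore used no block. GRX480, GT72B1, AT3G04000 and AT4G23050 lost their call only with the block (adjusted p 0.0528 to 0.0685, limma). AT1G73390, AT5G42200 and AT3G28700 lost it there too (0.0616, 0.0910 and 0.0958). Of 392 alternative values of the 28 named genes in HA-RAP2.12, 359 kept the call or its absence, 22 lost the call and 11 gained it. The sign turned in 4, none of them called: HSA32 in 3 and AT2G34200 in 1. The cause of these changes was not tested. Genes near the lowest value may depend most on the background step, which could not be varied here.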

Other observations

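On the low-oxygen list AT1G26270, which failed the wild type limit on the change and was picked after its values were seen, changed by 0.98 on the log2 scale in wild type and by 0.25 in amiRAP2.2-12, or 25.9%. In HA-RAP2.12 it rose by 0.61 (SE 0.11, adjusted p = 0.0296, limma).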
